A study of Homo sapiens with 5 samples.

Results

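The comparison described here is that of 1 library of HCT116 cells given an siRNA against SP1 with 2 libraries of the same cells given a control siRNA, 3 of the 5 libraries in the series. HCT116 is a human colorectal cancer cell line of epithelial origin, and siRNAs are short RNA duplexes that bring down a transcript of matching sequence. The members are the genes measured in these libraries, and every difference was taken against each control as well as against their mean. The remaining libraries received an SP3 siRNA or both siRNAs, and their values are set beside the others without a test. The sources used here give neither the siRNA sequences nor their dose or the hours of exposure. All cells were of 1 line, and the knockdown side has 1 library, so no difference has a replicate check on that side. Levels are in FPKM, fragments scaled to transcript length and to the size of the library. Differences are on the log2(FPKM + 1) scale, on which genes at low levels show less than their full change.

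SP1 is a transcription factor with zinc fingers that binds GC-rich promoter elements called GC boxes, many of them in housekeeping and cell cycle genes without a TATA box. SP3, a close relative, binds the same elements. SP1 recruits general transcription factors and coactivators, and it has long been studied as an activator of growth genes in colorectal and other carcinoma cells.

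The targeted transcript was lower in the library labelled for it. SP1 stood at 36.6 and 37.2 FPKM in the controls, at 15.8 FPKM with the SP1 siRNA, at 27.5 FPKM with the SP3 siRNA and at 16.1 FPKM with both. The SP1 siRNA library thus held 42.9% of the control level (95% exact interval 39.1 to 46.9%, counting error only), a log2 difference of -1.17 ± 0.07 (SE, limma adjusted p = 2.85e-09), and SP1 also held in the additive model described below. The paralog SP3 measured 13.3 and 13 FPKM in the controls against 14.3 FPKM, 109% (102 to 116%), and its difference of 0.12 ± 0.09 did not pass the test (limma adjusted p = 0.259).

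Library depth ran from 15354043 to 15899164 reads for these 3 libraries. The 12 epithelial markers summed to 4754 and 4752 FPKM in the controls and 3929.9 FPKM in the SP1 siRNA library. The keratin KRT8 was at 1749 and 1799 FPKM against 1737 FPKM and E-cadherin (CDH1) at 48.6 and 49.1 FPKM against 38.6 FPKM, while KRT18 and CLDN4 fell, as given below. Other members were higher with the SP1 siRNA: EPCAM at 99.7 and 105 FPKM against 119 FPKM and CLDN7 at 105 and 102 FPKM against 148 FPKM. Of the intestinal markers CDX2 stood at 1.15 and 1.13 FPKM against 0.557 FPKM, and KRT20 at 0.141 and 0.105 FPKM against 0.722 FPKM. CDX1 and VIL1 were at 0 with the SP1 siRNA and at or near 0 in the controls. Endothelial markers summed to 0.439, 0.396 and 0.273 FPKM in control 1, control 2 and the SP1 siRNA library.

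Transcript levels moved in both directions. Tested were the 11728 genes that reached 1 FPKM in any library. Of these limma called 7666 (65.4%), so its threshold alone separates few genes. A gene is therefore said to have risen or fallen here only if it passed limma (adjusted p under 0.05) and also lay at least 1.5-fold from each control in the same direction. By that rule 2913 genes changed (24.8%), of which 1620 rose (13.8%) and 1293 fell (11.0%). At least 2-fold from each control, with no test, were 882 genes (7.52%), of which 443 genes were higher (3.78%) and 439 lower (3.74%). Between the 2 controls 33 genes differed by 1.5-fold (0.281%) and 2 by 2-fold (0.0171%). The middle 50% of all differences lay between -0.30 and 0.41, around a median of 0.06, and the controls differed by a median of -0.03 with an SD of 0.133 across genes.

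Additional limits touch every call. The controls are not stated to be separate cultures, so p-values may reflect technical spread alone. An additive model was also fitted to all 5 libraries. It counted the departure of the double knockdown from the sum of the single differences as spread. Over all tested genes, 389 were higher and 426 lower there by limma (adjusted p under 0.05) and a model difference of at least 1.5-fold. The 1.5-fold rule on each control was not applied in that model. Genes that also passed there are said below to hold in the additive model.

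**Figure D1:**
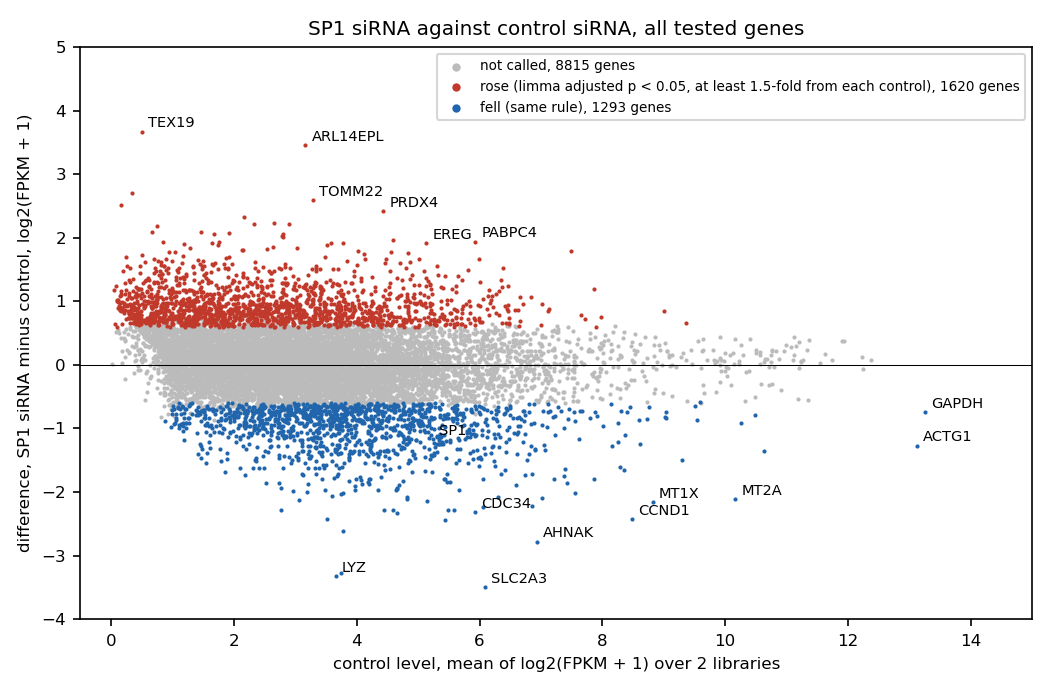
Each point is 1 of 11728 tested genes, with the control level on the horizontal axis (mean of log2(FPKM + 1) over the 2 controls) and the difference, SP1 siRNA minus control, on the vertical axis (log2(FPKM + 1)). Red points are the 1620 genes that rose, blue points the 1293 that fell, and changes past 2 units are seen from SLC2A3, AHNAK and MT2A at the bottom to TEX19 and ARL14EPL at the top.

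GC boxes stood in similar shares of the promoters of genes that rose and of genes that fell. RefSeq promoter windows (GRCh38.p14, 250 bases before to 50 after the start) were found for 9273 of the 11728 genes, and 6571 of these had a single listed start. The core motif GGGCGG, read on either strand and thus also as CCGCCC, was present in 74.9% of those 6571 windows. It was in 74.3% of the 882 windows of genes that rose and in 73.6% of the 774 of genes that fell. Over all 35116 windows of the table the share was 45.0%. The median difference was 0.03 for the 1650 genes with no box, 0.05 with 1, 0.04 with 2, 0.07 with 3, 0.06 with 4 and 0.08 for the 700 genes with 5 or more, while the quartiles of the genes with no box lay at -0.33 and 0.40. Of the genes with 5 or more boxes 17.0% rose and 11.1% fell, and of those with none 13.8% rose and 12.4% fell. CCAAT, another common promoter motif, was in 38.0% of all windows, 36.4% for rises and 40.3% for falls, and TATAAA in 4.9%, 5.0% and 5.2%. Windows of the groups had a median GC content of 66.3%, 66.0% and 66.3%. No test was run on these shares, and a motif match is not a binding site.

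Promoters of 4 genes show both motif states in both directions. AHNAK and ABRAXAS1 have 4 boxes each in the 150 bases before the start, and CCL20 and TOMM22 have none in the whole window. AHNAK and CCL20 fell, and ABRAXAS1 and TOMM22 rose. The stretches are from RefSeq, GRCh38.p14, printed 5′ to 3′ on the gene's strand with each GC box core in capitals. AHNAK lies on the minus strand at chr11:62545827-62545976, CCL20 on the plus strand at chr2:227813692-227813841, TOMM22 on the plus strand at chr22:38681807-38681956 and ABRAXAS1 on the minus strand at chr4:83485101-83485250.
AHNAK: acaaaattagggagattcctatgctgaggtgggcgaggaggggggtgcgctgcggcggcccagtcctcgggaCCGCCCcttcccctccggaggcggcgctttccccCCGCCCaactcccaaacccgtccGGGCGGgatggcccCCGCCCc
CCL20: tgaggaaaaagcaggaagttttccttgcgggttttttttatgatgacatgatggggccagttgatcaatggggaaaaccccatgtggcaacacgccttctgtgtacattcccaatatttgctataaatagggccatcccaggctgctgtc
ABRAXAS1: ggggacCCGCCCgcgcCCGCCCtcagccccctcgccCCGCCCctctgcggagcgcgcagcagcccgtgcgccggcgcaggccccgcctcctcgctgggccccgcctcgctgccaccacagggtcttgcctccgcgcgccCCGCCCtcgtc
TOMM22: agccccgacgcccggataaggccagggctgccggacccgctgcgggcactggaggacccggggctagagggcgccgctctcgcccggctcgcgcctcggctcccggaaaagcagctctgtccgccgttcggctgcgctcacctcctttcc

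AHNAK, with 4 boxes, encodes a very large scaffold protein under the cell membrane and fell from 124 and 119 FPKM to 16.8 FPKM, with 73.4 FPKM for the SP3 siRNA and 30.2 FPKM for both. CCL20, a chemokine that attracts lymphocytes and dendritic cells, has no box but a TATAAA match and 2 CCAAT matches in its window. It fell from 12.8 and 12 FPKM to 0.387 FPKM, which rests on 5 reads against 169 and 161. ABRAXAS1, which holds together the BRCA1-A complex at DNA breaks, rose from 3.25 and 3.68 FPKM to 21.4 FPKM with its 4 boxes, and stood at 4.57 FPKM with the SP3 siRNA and 7.39 FPKM with both. TOMM22, the central receptor of the mitochondrial outer membrane translocase, has none and rose from 8.88 and 8.67 FPKM to 57.8 FPKM, with 49.8 and 48.7 FPKM in the SP3 siRNA and double knockdown libraries. So 1 gene with and 1 without boxes is shown for each direction, and only AHNAK of the 4 held in the additive model.

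**Figure D2:**
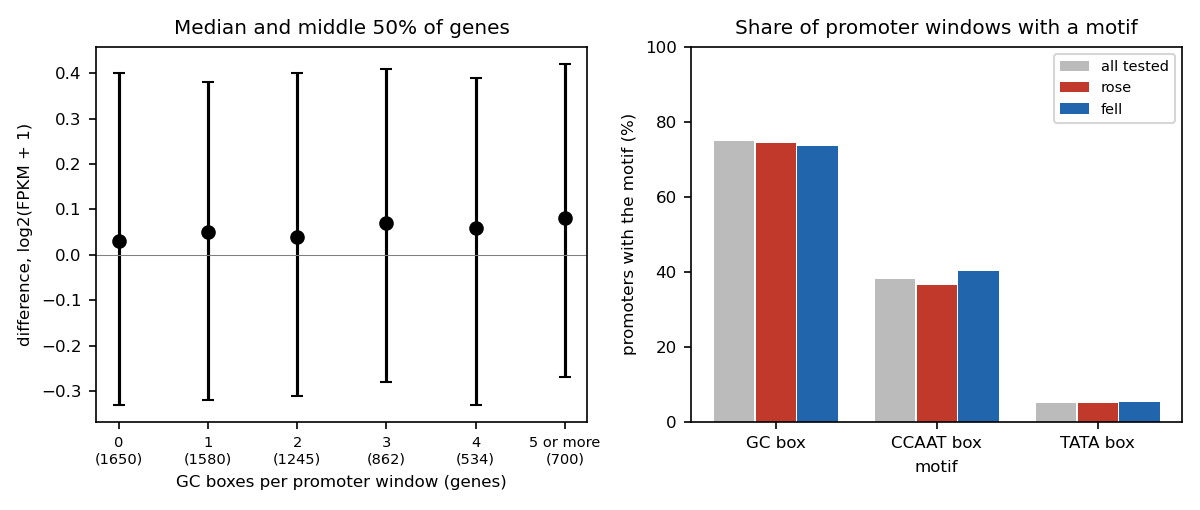
The left panel plots the median difference (log2(FPKM + 1), points) and the middle 50% of genes (bars) by the number of GC boxes in the 300-base promoter window, with gene numbers under the axis. The right panel plots the percent of windows with a GC box, a CCAAT box or a TATA box for all tested genes, rises and falls, and the bars of the 3 groups lie within 4 percentage points of each other for each motif.

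The steepest falls were in genes of unlike function. LYZ (-3.33) and S100A9 (-2.61) were among them and are given below with the leukocyte markers. SLC2A3, a glucose transporter with high affinity, fell from 70.5 and 63.9 FPKM to 5.03 FPKM, 7.49% of control, and was at 5.92 FPKM with both siRNAs. Cyclin D1 (CCND1), the partner of CDK4 and CDK6 in G1, fell from 359 and 358 FPKM to 65.8 FPKM, against 281 FPKM with the SP3 siRNA and 77.5 FPKM with both. CDC34, the ubiquitin-conjugating enzyme that serves SCF ligases, fell from 58.6 and 60.5 FPKM to 11.1 FPKM, a difference of -2.32 ± 0.07 (limma adjusted p = 2.49e-12), with 45.4 FPKM for the SP3 siRNA and 15.1 FPKM for both. SLC2A3, CCND1 and CDC34 were each low in both libraries that received the SP1 siRNA and nearer to control in the SP3 siRNA library.

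Several of the next falls were in mitochondrial proteins. CLPP, the protease subunit of the matrix ClpXP complex, fell from 42 and 46.2 FPKM to 8.20 FPKM (-2.29 ± 0.08), and stood at 32 FPKM with the SP3 siRNA and 12 FPKM with both. CPOX, coproporphyrinogen oxidase of haem synthesis, fell from 47 and 47.4 FPKM to 8.85 FPKM, with 42 and 24.1 FPKM in the libraries with the SP3 siRNA alone and with both. ALDH1B1, a matrix aldehyde dehydrogenase, fell from 10.8 and 10.1 FPKM to 1.14 FPKM. In all 3 the SP1 siRNA library was the lowest of the 5, although ALDH1B1 was at 1.21 FPKM with both siRNAs, close to the level with the SP1 siRNA.

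Other large falls were in nucleic acid and purine metabolism. FEN1, the flap endonuclease that trims Okazaki fragments, fell from 23 and 23.1 FPKM to 3.91 FPKM (-2.29 ± 0.09), with 7.42 FPKM for the SP3 siRNA and 5.82 FPKM for both. ERH, a small conserved protein bound to RNA processing factors, fell from 118 and 112 FPKM to 23.9 FPKM, with 77.8 and 39.6 FPKM in the others. GDA, guanine deaminase, fell from 34.6 and 34 FPKM to 6.96 FPKM, and was at 12.5 and 7.26 FPKM there. FEN1 and GDA were thus also low in the SP3 siRNA library, ERH less so. FAM234B fell from 26.7 and 27.9 FPKM to 5.54 FPKM.

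Of the 20 largest falls 11 held in the additive model, among them SLC2A3, CCND1, AHNAK, CDC34, CLPP, ALDH1B1 and ERH. CPOX, FEN1, GDA and FAM234B did not. EIF3C is among the 20 and held there, but its controls differed, at 9.43 and 5.74 FPKM against 0.927 FPKM. Its near-identical copy EIF3CL, listed at 0.585 and 1.56 FPKM against 0.259 FPKM, can share its reads, as SAA2 can those of SAA1, so their values are uncertain.

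The steepest rise was that of TEX19, a gene of germ cells and placenta. TEX19 stood at 0.331 and 0.504 FPKM in the controls, 11 and 17 reads, and at 17.0 FPKM with the SP1 siRNA, 554 reads. It was 40.7-fold the control level (95% exact interval 27.8 to 61.8, counting error only), while the SP3 siRNA and double knockdown libraries held 1.09 and 1.57 FPKM. The library with both siRNAs, which also received the SP1 siRNA, thus stayed far nearer to the controls than to the SP1 siRNA library, and TEX19 did not hold in the additive model. ARL14EPL rose from 8.06 and 7.84 FPKM to 97.3 FPKM, and was at 19.8 FPKM with the SP3 siRNA and 32.3 FPKM with both.

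Many large rises were largest with the SP1 siRNA alone. RBM12B, an RNA-binding protein, rose from 6.65 and 5.30 FPKM to 27.9 FPKM (2.06 ± 0.11), against 3.52 FPKM with the SP3 siRNA and 6.41 FPKM with both. ZNF385A, a zinc finger protein, rose from 22.7 and 23.4 FPKM to 93.3 FPKM, with 30.0 and 40.1 FPKM in those libraries. EREG, the EGFR ligand epiregulin, rose from 35.3 and 33.0 FPKM to 131 FPKM, with 50.8 and 59.5 FPKM. PABPC4, a cytoplasmic poly(A)-binding protein, rose from 56.8 and 63.0 FPKM to 232 FPKM with a difference of 1.94 ± 0.07, and was at 124 and 139 FPKM there. In each of these the double knockdown lay between the controls and the SP1 siRNA library, or at the control level for RBM12B.

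A second set was also high with both siRNAs. SVBP, a chaperone of the tubulin-detyrosinating vasohibins, rose from 11.8 and 10.3 FPKM to 44.6 FPKM and was at 41.2 FPKM with the SP3 siRNA and 56.3 FPKM with both. HDGFL2, a chromatin reader, rose from 12.8 and 12.6 FPKM to 50.5 FPKM, with 33.4 and 49.1 FPKM. The transcription factor KLF2 rose from 6.27 and 6.68 FPKM to 33.5 FPKM, with 33.6 FPKM for the SP3 siRNA and 24.1 FPKM for both. For SVBP and KLF2 the SP3 siRNA library was close to the SP1 siRNA library.

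Further rises were FOXP4, a forkhead transcription factor, from 2.18 and 2.23 FPKM to 12.3 FPKM, and PALM, the membrane protein paralemmin, from 5.89 and 5.93 FPKM to 27 FPKM. DCAF6, a substrate receptor of a cullin ligase, rose from 6.57 and 5.46 FPKM to 27.2 FPKM. PIGP, which takes part in making GPI anchors, rose from 2.43 and 2.36 FPKM to 12.1 FPKM. The controls of PTPRZ1, a receptor tyrosine phosphatase, stood apart at 2.79 and 1.58 FPKM, both well under its 10.8 FPKM with the SP1 siRNA. Of the 20 largest rises 3 held in the additive model: METTL27, FAM210B and PIGP.

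**Figure D3:**
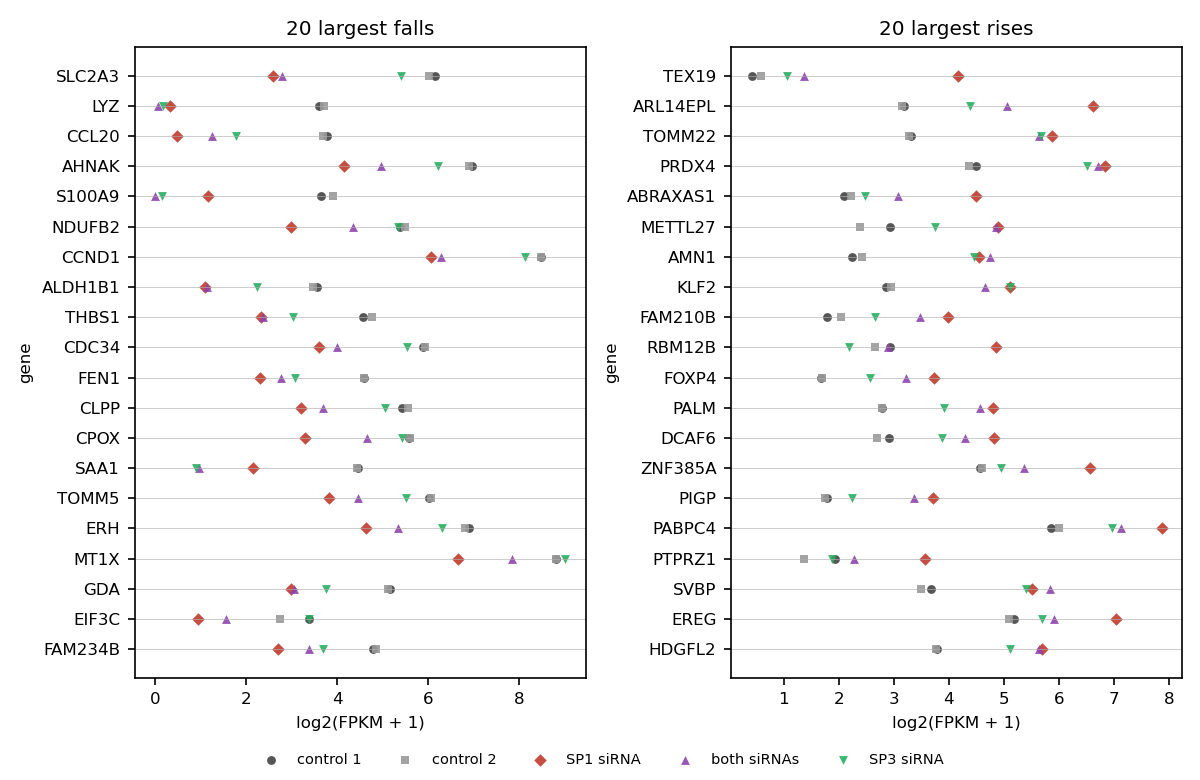
Levels (log2(FPKM + 1), horizontal axis) of the 20 largest falls (left) and 20 largest rises (right) in each of the 5 libraries, 1 row per gene. The 2 control symbols lie close together in most rows, the red diamonds of the SP1 siRNA lie apart from them, and for TEX19 and RBM12B the 4 other libraries lie at the low end.

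A few genes crossed from near silence to a clear level or back, and these were picked out after their values were seen. Besides TEX19, 5 genes went from below 1 FPKM in both controls to at least 5 FPKM, 6 in all. UPK2, a uroplakin of bladder epithelium, rose from 0.137 and 0.404 FPKM to 7.25 FPKM. The secreted C1QTNF6 rose from 0.781 and 0.579 FPKM to 6.64 FPKM and the claudin CLDN9 from 0.871 and 0.337 FPKM to 5.72 FPKM. The other 2 are unnamed loci. In the other direction 7 genes went from at least 5 FPKM in both controls to below 1 FPKM. They were LYZ, CCL20, EIF3C, CD74, the kinesin KIF4A, the platelet-activating factor receptor PTAFR (5.98 and 5.58 FPKM to 0.388 FPKM) and SHCBP1, a protein of cytokinesis (5.62 and 5.74 FPKM to 0.842 FPKM). LYZ and CD74 are also in the list of leukocyte markers given below. UPK2, C1QTNF6 and CLDN9 held in the additive model, and PTAFR and SHCBP1 did not.

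Genes that work with SP1 moved both ways. Of 25 measured partners and coactivators, SP1 itself counted, 3 rose and 3 fell. HDAC1, a deacetylase that binds SP1, rose from 32.2 and 30.4 FPKM to 75.7 FPKM, and the GC-box binding factors MAZ and ZBTB7A rose from 33.7 and 34.2 FPKM to 81.8 FPKM and from 5.27 and 4.90 FPKM to 15.6 FPKM. Among the falls, MED1, a Mediator subunit, went from 12.5 and 11.5 FPKM to 5.70 FPKM, and E2F1 from 4.77 and 5.33 FPKM to 1.81 FPKM. With the SP3 siRNA and with both, MED1 was at 4.85 and 4.32 FPKM. E2F1 was above the controls in those libraries, at 6.66 and 5.53 FPKM. HDAC1 was as high there, at 77.0 and 90.2 FPKM, with MAZ at 34.7 and 60.5 FPKM and ZBTB7A at 8.42 and 13.9 FPKM. MAZ and ZBTB7A held in the additive model. Among 13 KLF factors, which share the zinc finger type of SP1, 4 rose (KLF2, KLF7, KLF11 and KLF3) and 0 fell at a median difference of 0.37, and none of the 4 held in the additive model. KLF7 rose from 4.07 and 3.88 FPKM to 9.65 FPKM. The transcription machinery itself was mixed: 4 of 30 Mediator subunits rose and 3 fell, and 3 of 12 RNA polymerase II subunits fell, POLR2E from 41.4 and 42.3 FPKM to 23.8 FPKM. POLR2E was at 39.0 FPKM with the SP3 siRNA and at 41.4 FPKM with both. The list shares here and below stand against 13.8% of all tested genes that rose and 11.0% that fell.

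In the cell cycle, falls were most frequent among mitotic kinesins, the motor proteins that move chromosomes and shape the spindle. Of 13 measured, 11 fell and 0 rose, at a median of -1.10, against 0.06 for all tested genes. KIF20A, a motor of cytokinesis, fell from 14.1 and 10.8 FPKM to 2.23 FPKM. KIF18B fell from 12.1 and 10.2 FPKM to 1.89 FPKM. KIF2C, which takes microtubule ends apart, fell from 21.7 and 17.3 FPKM to 5.89 FPKM. CENPE and KIF20B did not pass the 1.5-fold rule, at 4.09 and 2.39 FPKM against 1.72 FPKM and at 3.07 and 2.10 FPKM against 1.40 FPKM. The controls differed in the same list by a median of -0.26, control 2 being the lower. With the SP3 siRNA all 11 were below both controls, KIF20A furthest, at 1.53 FPKM. KIF18A was the least changed there, at 5.74 FPKM against 8.75 and 7.15 FPKM in the controls. None of the 11 held in the additive model.

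Other mitotic lists fell in part. In the spindle checkpoint and anaphase-promoting complex, 10 of 23 fell and 0 rose. The checkpoint genes MAD2L1 and BUB1B fell from 34.4 and 33.0 FPKM to 11.7 FPKM and from 16.2 and 14.6 FPKM to 6.27 FPKM. CDC20, the activator of the anaphase-promoting complex, fell from 76.0 and 69.1 FPKM to 29 FPKM but stood at 91.8 FPKM with the SP3 siRNA, and was the 1 of the 10 to hold in the additive model. Of 23 kinetochore genes 5 fell, with all 4 subunits of the NDC80 complex (NDC80, NUF2, SPC24 and SPC25) among them, and CENPH rose from 5.6 and 4.21 FPKM to 9.52 FPKM and held in the additive model. NDC80 fell from 7.81 and 6.66 FPKM to 2.16 FPKM. Among 17 condensin and cohesin genes 3 fell, all of them condensin subunits: NCAPG, NCAPG2 and NCAPH.

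Genes of DNA synthesis fell more often than they rose. Of 16 genes that license origins 5 fell and 1 rose, at a median of -0.42. MCM5 and MCM4, subunits of the replicative helicase, fell from 18.1 and 19.2 FPKM to 7.81 FPKM and from 21.9 and 22.6 FPKM to 9.67 FPKM. MCM2 fell from 25.7 and 26.2 FPKM to 15.3 FPKM, yet its value in the additive model was 0.01. Of 28 replisome genes 6 fell and 1 rose, and of 12 genes of deoxynucleotide supply 4 fell and 1 rose. RRM2, the regulated subunit of ribonucleotide reductase, fell from 66.1 and 64.5 FPKM to 18 FPKM. Thymidine kinase TK1 fell from 132 and 130.4 FPKM to 54.0 FPKM, and thymidylate synthase TYMS from 40.8 and 39.7 FPKM to 17.7 FPKM. The SP3 siRNA library was as low for RRM2 (17.2 FPKM) and TYMS (16.8 FPKM). None of the falls in these 3 lists held in the additive model.

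Regulators of G1 were less uniform. Of 10 measured cyclins, kinases and their activators CCND1 alone fell and CCNE1 alone rose, the latter from 15.5 and 17.1 FPKM to 26.8 FPKM. Cyclin E1 was higher still with the SP3 siRNA, at 78.2 FPKM. CDK2 stood at 43.6 and 40.6 FPKM against 40.8 FPKM, and CDK4 at 62.3 and 61.4 FPKM against 55.0 FPKM. Of 7 CDK inhibitors 4 fell and 1 rose. CDKN1A (p21) fell from 343 and 329 FPKM to 200.2 FPKM, and CDKN2D (p19) from 31.8 and 34.8 FPKM to 12.9 FPKM. CDKN1C (p57) fell from 35.5 and 36.5 FPKM to 19.9 FPKM, whereas CDKN2B (p15) rose from 5.79 and 5.04 FPKM to 9.38 FPKM. CDKN1C was at 107 FPKM with the SP3 siRNA and 68.1 FPKM with both, above the controls. CCND1, CDKN1A and CDKN1C held in the additive model. Of 25 p53 target genes 5 rose and 2 fell. The cyclin G gene CCNG1 rose from 71.5 and 74.0 FPKM to 156 FPKM and BAX from 48.9 and 47.5 FPKM to 81.5 FPKM, opposite to p21.

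DNA repair genes changed in both directions. Of 27 genes of the Fanconi pathway and homologous recombination 8 fell and 4 rose. FANCG, part of the Fanconi core complex, fell from 9.40 and 9.71 FPKM to 3.76 FPKM and RAD54L from 9.92 and 9.08 FPKM to 4.25 FPKM, against the rise of ABRAXAS1. Of 7 mismatch repair genes EXO1 fell from 6.3 and 6.46 FPKM to 3.28 FPKM and MSH6 rose from 9.10 and 8.72 FPKM to 14.5 FPKM. TERT, the catalytic subunit of telomerase, fell from 2.51 and 3.07 FPKM to 1.13 FPKM and was at 0.327 FPKM with the SP3 siRNA.

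Some complexes had subunits that moved in opposite directions. Whether they did so more than the shares over all tested genes would give was not tested. In the translocase of the outer mitochondrial membrane, TOMM5 fell from 64.3 and 66.2 FPKM to 13.1 FPKM (-2.24 ± 0.07) while TOMM22 rose by 2.59 ± 0.07, and the pore subunit TOMM40 rose from 33.5 and 34.2 FPKM to 54.9 FPKM. TOMM22 was similar in all 3 knockdown libraries, but TOMM5 was at 44.7 FPKM with the SP3 siRNA and 21.0 FPKM with both. TOMM5 and TOMM40 held in the additive model. Of all 27 mitochondrial import genes 3 rose and 1 fell.

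The signal peptidase complex, which cuts signal peptides from proteins entering the endoplasmic reticulum, showed the same split. This list of 5 was added after the values were seen. SPCS1 fell from 65.5 and 68.3 FPKM to 24.8 FPKM. SPCS2 fell from 11.3 and 11.8 FPKM to 3.94 FPKM and SPCS3 from 20.8 and 21.8 FPKM to 7.75 FPKM. The catalytic subunit SEC11A rose from 43.6 and 48.1 FPKM to 107 FPKM, and its paralog SEC11C stood at 20 and 19.1 FPKM against 25 FPKM. SPCS1 and SPCS3 held in the additive model. In the wider list of translocon, signal recognition and signal peptidase genes, 8 of 22 fell and 2 rose, SSR3 of the translocon-associated complex from 38.3 and 40.3 FPKM to 16.1 FPKM, which also held.

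Translation initiation factor 3, the large scaffold that loads messenger RNA on the small ribosomal subunit, has 13 measured subunits, a list also added after the values were seen. Of these 4 rose and 2 fell, at a median of 0.43. EIF3A, its largest subunit, rose from 79.4 and 78.7 FPKM to 178 FPKM. The core subunit EIF3B rose from 47.8 and 48.1 FPKM to 115 FPKM, and EIF3F from 88.4 and 86.3 FPKM to 169 FPKM. EIF3K, a peripheral subunit, fell from 169.5 and 164 FPKM to 52.7 FPKM (-1.64 ± 0.06) and was at 187 FPKM with the SP3 siRNA and 122 FPKM with both. EIF3K and EIF3C, the falls, held in the additive model, and none of the 4 rises did. Over all 35 initiation factors 4 rose and 5 fell. EIF6, which keeps the ribosomal subunits apart, fell from 59.3 and 58.5 FPKM to 27.2 FPKM and held in that model.

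The proteasome had 7 falls and 1 rise among 31 subunits. PSMB6 and PSMB7, catalytic subunits of the core particle, fell from 101 and 90.9 FPKM to 25.1 FPKM and from 164 and 167 FPKM to 48.3 FPKM. Both were above the controls with the SP3 siRNA, at 132 and 243 FPKM, and both held in the additive model. PSMD4, a ubiquitin receptor of the regulatory particle, fell from 70.4 and 68.5 FPKM to 33.1 FPKM and held too. PSMC3, an ATPase of the base, rose from 16.5 and 14.5 FPKM to 31.0 FPKM, and more with the SP3 siRNA, to a level of 53.7 FPKM there.

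In SWI/SNF, the chromatin remodeller, SMARCD2 fell from 78.1 and 77.8 FPKM to 17.6 FPKM (-2.08 ± 0.07) and its paralog SMARCD1 rose from 15.2 and 15.4 FPKM to 32.1 FPKM. SMARCE1 rose from 28.8 and 27.4 FPKM to 73.0 FPKM and BRD7 from 9.20 and 8.84 FPKM to 22.7 FPKM. Over 18 subunits 4 rose and 2 fell, and SMARCD2 held in the additive model. Among 18 histone deacetylases and sirtuins 4 rose and 0 fell, HDAC9 from 1.52 and 1.45 FPKM to 3.97 FPKM, while 1 of 20 Polycomb genes rose and 1 fell. Of 12 genes of DNA methylation TET2 alone fell, from 3.07 and 3.13 FPKM to 1.32 FPKM, and the maintenance methylase DNMT1 stood at 26.4 and 24.1 FPKM against 22.7 FPKM.

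Of 30 SR and hnRNP splicing factors 6 fell and 1 rose, and all 6 but TRA2A were hnRNPs. HNRNPK, an RNA-binding protein that also binds C-rich DNA, fell from 174 and 166 FPKM to 46.1 FPKM (-1.86 ± 0.06) and held in the additive model. HNRNPA3, whose processed copies can share its reads, fell from 85.0 and 85.7 FPKM to 32.4 FPKM. The splicing regulators HNRNPF and HNRNPL fell from 51.7 and 50.9 FPKM to 25.8 FPKM and from 105 and 105 FPKM to 56.7 FPKM. PTBP1, the splicing repressor, rose from 81.3 and 80.8 FPKM to 129 FPKM. AAAS, a nuclear pore protein, fell from 22.9 and 21.5 FPKM to 6.45 FPKM and held as well, in a list where 3 of 28 fell and 1 rose. Ribosome biogenesis had 4 rises and 4 falls among 35 genes, with nucleophosmin (NPM1) rising from 512 and 519 FPKM to 932 FPKM.

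**Figure D4:**
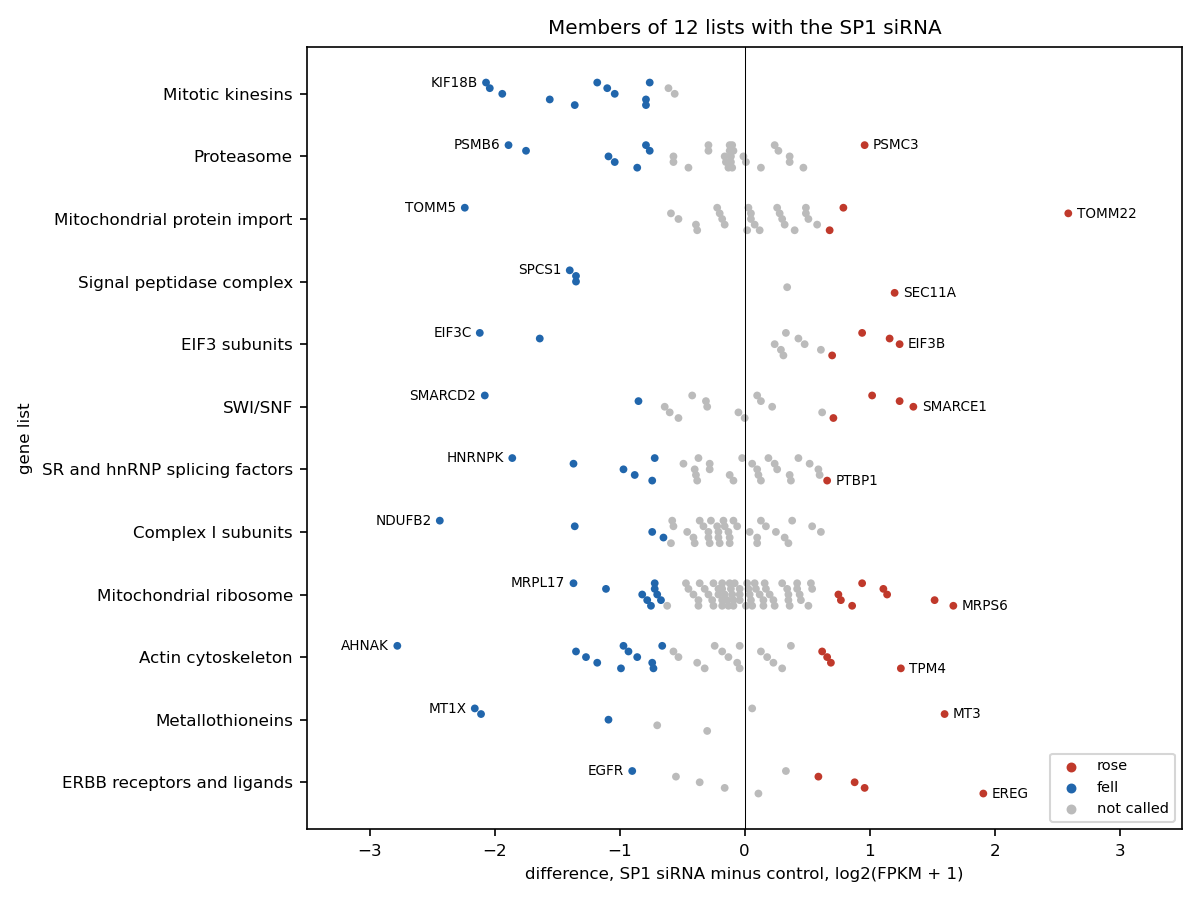
Each point is 1 measured member of the list named on the left, at its difference, SP1 siRNA minus control (log2(FPKM + 1)). Red points rose, blue points fell, gray points did neither, and the outermost changed genes are named: in 10 of the 12 lists changed members lie on both sides of 0, and for kinesins and complex I all of them lie below 0.

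Respiratory chain genes fell at close to the background share. In complex I 4 of 38 subunits fell and 0 rose, led by NDUFB2 from 40.8 and 44.0 FPKM to 6.97 FPKM, with 39.7 FPKM for the SP3 siRNA and 19.5 FPKM for both. NDUFS3 fell from 58.0 and 58.7 FPKM to 22.2 FPKM. In complexes II to IV 2 of 24 fell, cytochrome c1 (CYC1) from 119 and 118 FPKM to 46.6 FPKM, and ATP synthase had 2 falls and 1 rise among 16, ATP5F1B falling from 509.7 and 529 FPKM to 293 FPKM. In the library with both siRNAs CYC1 and ATP5F1B were nearer to control, at 96.6 and 515 FPKM. NDUFB2 and, of the genes named next, MRPS6 held in the additive model. The mitochondrial ribosome had 8 rises and 9 falls among 75 proteins, from MRPS6, which rose from 15.6 and 17.5 FPKM to 54.5 FPKM, to MRPL17, which fell from 38.9 and 38.0 FPKM to 14.3 FPKM.

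The citric acid cycle and pyruvate dehydrogenase had 7 falls and 1 rise among 18 genes, at a median of -0.50. IDH2, mitochondrial isocitrate dehydrogenase, fell from 45.4 and 43.9 FPKM to 19.0 FPKM, as did 2 subunits of pyruvate dehydrogenase, PDHB from 31.2 and 31.6 FPKM to 15.8 FPKM and DLAT from 12.2 and 12.2 FPKM to 5.90 FPKM. IDH3A, of the NAD-linked isocitrate dehydrogenase, rose from 10.5 and 10.6 FPKM to 16.6 FPKM. None of these 8 held in the additive model.

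Glycolytic genes changed in the upper and in the lower part of the pathway. Of 13 genes of glucose uptake and upper glycolysis 4 fell and 1 rose. Beside SLC2A3, hexokinases HK1 and HK2 fell from 62.7 and 63.4 FPKM to 36.6 FPKM and from 149 and 158 FPKM to 96.0 FPKM, and PFKFB4 from 54.2 and 52.6 FPKM to 23.3 FPKM, whereas the liver-type phosphofructokinase PFKL rose from 20.7 and 20.5 FPKM to 44.9 FPKM. Of 13 genes of lower glycolysis and lactate 2 fell and 0 rose. GAPDH, the gene with the highest control level, fell from 9759 and 9722 FPKM to 5809.6 FPKM and PGK1 from 725 and 735 FPKM to 467 FPKM, while ALDOA stood at 1671 and 1775 FPKM against 1909.6 FPKM and LDHA at 1491 and 1552 FPKM against 1752 FPKM. In the pentose phosphate pathway 2 of 7 rose and 0 fell, and both held in the additive model: RPIA, ribose phosphate isomerase, from 11 and 9.33 FPKM to 34.9 FPKM, and PGLS from 8.31 and 9.15 FPKM to 20.3 FPKM.

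Sterol synthesis had 7 falls and 1 rise among 25 genes, at a median of -0.50. The sterol isomerase EBP fell from 72.7 and 76.6 FPKM to 25.4 FPKM. The sterol reductase DHCR7 fell from 148 and 151 FPKM to 69.1 FPKM. Both were also low with the SP3 siRNA, at 30.0 and 56.6 FPKM. PMVK, phosphomevalonate kinase, rose from 5.98 and 4.89 FPKM to 11.9 FPKM. In serine and one-carbon metabolism 4 of 13 rose and 2 fell, MTHFD2 from 77.0 and 80.7 FPKM to 136 FPKM, and of 12 amino acid transporters 2 rose and 4 fell. Both chains of the leucine exchanger, SLC7A5 and SLC3A2, fell, from 60.5 and 66.6 FPKM to 22.6 FPKM and from 56.8 and 68.7 FPKM to 37.0 FPKM. MTHFD2, SLC7A5 and SLC3A2 held in the additive model.

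Redox and metal-binding genes had some of the most abundant falls. PRDX5, a peroxiredoxin of several compartments, fell from 310.3 and 314 FPKM to 102 FPKM and held in the additive model, while PRDX4 of the endoplasmic reticulum rose from 21.6 and 19.6 FPKM to 114 FPKM. Thioredoxin (TXN) fell from 196 and 202 FPKM to 121 FPKM and sulfiredoxin (SRXN1) from 40.9 and 39.0 FPKM to 17.9 FPKM. Over 17 peroxiredoxin and thioredoxin genes 4 fell and 1 rose. Metallothioneins, small proteins that bind zinc and copper, form a list added after the values were seen, and their near-identical copies can share reads. MT2A fell from 1164 and 1138 FPKM to 265 FPKM (-2.11 ± 0.05). MT1X fell from 452 and 449 FPKM to 22.2% of the control level, and MT1E from 108 and 105 FPKM to 49.5 FPKM. The SP3 siRNA library, by contrast, was above the controls for all 3, at 1567, 517 and 204 FPKM. MT3 rose from 1.70 and 0.839 FPKM to 5.75 FPKM. The zinc-sensing factor MTF1 stood at 4.89 and 4.58 FPKM against 4.98 FPKM. MT1X and MT1E held in the additive model.

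Cytoskeletal genes fell more often than they rose. Of 30 actin-associated genes 11 fell and 4 rose. ACTG1, cytoplasmic gamma actin, whose processed copies can share its reads, fell from 8502 and 9348 FPKM to 3701 FPKM. Vinculin (VCL), which links integrins to actin, fell from 159.9 and 169 FPKM to 82.2 FPKM and the myosin light chain MYL9 from 47.3 and 52.1 FPKM to 21.4 FPKM. The tropomyosins split: TPM3 fell from 16.9 and 15.5 FPKM to 5.74 FPKM and TPM4 rose from 35.2 and 36.3 FPKM to 86.3 FPKM. Only AHNAK, TPM3 and 1 further fall held in the additive model. Of 13 tubulins 3 fell and 2 rose, TUBA1B from 318 and 293 FPKM to 132 FPKM, with the caution that alpha tubulin copies can share reads. Of 10 keratins 5 fell and 1 rose, KRT18 from 750.4 and 739.8 FPKM to 408 FPKM, while its partner KRT8 stood at 1749 and 1799 FPKM against 1737 FPKM. TUBA1B and KRT18 held in the additive model.

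Adhesion genes divided by family. Among 10 integrins 3 fell and 1 rose. ITGA6, the alpha chain of laminin receptors, fell from 86.1 and 82.6 FPKM to 26.2 FPKM and ITGA2, of collagen receptors, from 38.3 and 37.0 FPKM to 14.7 FPKM, and both held in the additive model, while ITGB4 stood at 57.8 and 55.1 FPKM against 73.7 FPKM. The laminin chains LAMA3 and LAMB3 fell, LAMB3 from 143 and 147 FPKM to 82.0 FPKM, and LAMB3 held in that model. Claudin 4 (CLDN4), a tight junction protein, fell from 629.8 and 625 FPKM to 221 FPKM, and was as low with the SP3 siRNA (224 FPKM). Of 14 tight junction genes 3 fell and 0 rose. Cadherins and desmosomes had 0 rises and 0 falls among 16 genes by this rule, with differences from -0.54 to 0.54.

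In the list of extracellular proteases and inhibitors 5 of 20 fell and 3 rose. Urokinase (PLAU) fell from 82.9 and 87.9 FPKM to 36.0 FPKM and its receptor PLAUR from 34.3 and 36.2 FPKM to 15.3 FPKM. Tissue plasminogen activator (PLAT) fell from 6.22 and 5.41 FPKM to 3.15 FPKM, so both activators and the receptor were lower. THBS1, thrombospondin 1, fell from 22.6 and 26.2 FPKM to 4.02 FPKM. The inhibitor SERPINE2 did not pass the rule, at a difference of -0.26. PLAU, PLAUR, PLAT and THBS1 did not hold in the additive model.

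Growth factor signalling had rises among ligands and a fall of EGFR. Of 10 ERBB receptors and ligands 4 rose and 1 fell. The ligands AREG and TGFA rose from 237 and 237 FPKM to 358 FPKM and from 16.1 and 15.6 FPKM to 30.1 FPKM, with EREG as given above, and ERBB3 rose from 4.20 and 3.77 FPKM to 8.71 FPKM. EGFR fell from 18.8 and 17.4 FPKM to 9.24 FPKM, and lower still with the SP3 siRNA, at 4.41 FPKM. ERBB2 stood at 7.31 and 6.66 FPKM against 4.45 FPKM and HBEGF at 8.25 and 8.88 FPKM against 6.46 FPKM. None of the 5 changes held in the additive model. Downstream, FOSL1 rose from 100.1 and 99.5 FPKM to 209 FPKM, while the ERK phosphatase DUSP6 fell from 27.8 and 28.0 FPKM to 15.7 FPKM, in a list with 1 rise and 3 falls among 17.

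YAP target genes included 4 falls and 0 rises among 15. CTGF and CYR61, secreted matricellular proteins, fell from 12.1 and 17.6 FPKM to 3.17 FPKM and from 99.6 and 131 FPKM to 34.2 FPKM, although the controls differed for both and the SP3 siRNA library was higher, at 25.1 and 213 FPKM. TEAD1, the DNA-binding partner of YAP, fell from 28.6 and 27.6 FPKM to 14.4 FPKM. CTGF, CYR61 and TEAD1 held in the additive model. SMAD7, the feedback inhibitor of TGF-beta receptors, fell from 15.2 and 16.8 FPKM to 3.59 FPKM, and was at 4.8 FPKM with the SP3 siRNA, while 1 of the 20 genes in its list rose. MYC stood at 91.9 and 85.8 FPKM against 136 FPKM and missed the 1.5-fold rule against control 1, in contrast to 44.1 FPKM with the SP3 siRNA.

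Inflammatory genes fell more often than they rose. Of 20 chemokine and acute phase genes 8 fell and 1 rose, at a median of -0.38. SAA1 fell from 21.0 and 20.6 FPKM to 3.47 FPKM, and the adhesion molecule ICAM1 from 17.9 and 18.1 FPKM to 7.24 FPKM. BIRC3, an inhibitor of cell death, fell from 82.1 and 77.4 FPKM to 35.9 FPKM and held in the additive model. LCN2, lipocalin 2, rose from 48.4 and 47.9 FPKM to 81.2 FPKM. Of 23 interferon-stimulated genes 6 fell and 0 rose, at a median of -0.42 beside -0.12 between the controls. ISG15, a ubiquitin-like modifier, fell from 379 and 404 FPKM to 166 FPKM but was at 548 FPKM with the SP3 siRNA and held in the additive model, and IFI6 fell from 20.5 and 22.2 FPKM to 9.05 FPKM.

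Most markers of leukocytes fell as well. Of 10 markers 9 were tested, 8 fell and 0 rose, at a median of -1.46. The list summed to 103 and 104 FPKM in the controls, 60.4 FPKM with the SP1 siRNA, 95.4 FPKM with the SP3 siRNA and 76.9 FPKM with both, but most of each sum was CD68, which was at 61.9 and 58.7 FPKM in the controls and 56.2, 94.1 and 75.3 FPKM in those libraries. LYZ, lysozyme, fell from 11.1 and 12.2 FPKM to 0.258 FPKM, and CD74, the invariant chain, from 6.94 and 6.72 FPKM to 0.980 FPKM. TYROBP was at 2.05 and 1.49 FPKM and at 0 in all 3 knockdown libraries, and PTPRC, the pan-leukocyte antigen CD45, was at 0.930 and 0.717 FPKM against 0.0198 FPKM. The S100 genes S100A8 and S100A9 fell from 4.30 and 4.33 FPKM to 0.718 FPKM and from 11.5 and 14 FPKM to 1.24 FPKM. These markers were low in the other knockdown libraries as well: with the SP3 siRNA and with both, LYZ was at 0.124 and 0.0449 FPKM, CD74 at 0.566 and 0.581 FPKM, and S100A9 at 0.109 and 0 FPKM. None of the 8 falls held in the additive model. In bulk samples fewer cells of a type and less RNA per cell cannot be told apart, and the part of these markers in the inflammatory and interferon results was not tested. Fibroblast markers summed to 14.3, 13.7 and 20.3 FPKM, with ACTA2, which rose from 5.30 and 4.67 FPKM to 14 FPKM, as the member that changed.

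Stress and survival genes showed no single direction. Of 17 targets of ATF4 and the unfolded protein response 5 fell and 1 rose: HERPUD1 fell from 103 and 137 FPKM to 46.3 FPKM, and ATF4 itself rose from 27.2 and 29.7 FPKM to 46.3 FPKM. The chaperone HSPA5 fell to 652 FPKM, from controls that differed at 1040.0 and 1440.3 FPKM. HYOU1 and PDIA5, further folding factors, rose from 49.1 and 53.8 FPKM to 95.7 FPKM and from 35.2 and 35.6 FPKM to 86.6 FPKM. In the BCL2 family 3 of 15 fell and 2 rose. The survival factors MCL1 and BCL2L2 fell from 85.4 and 86.4 FPKM to 52.0 FPKM and from 13.1 and 12.3 FPKM to 6.64 FPKM together with the effector BAK1, from 16.1 and 15.8 FPKM to 7.93 FPKM, while BAX and BCL2L13 rose. All 3 falls held in the additive model, and all 3 genes were above the controls with the SP3 siRNA, at 137, 17.3 and 25 FPKM.

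**Figure D5:**
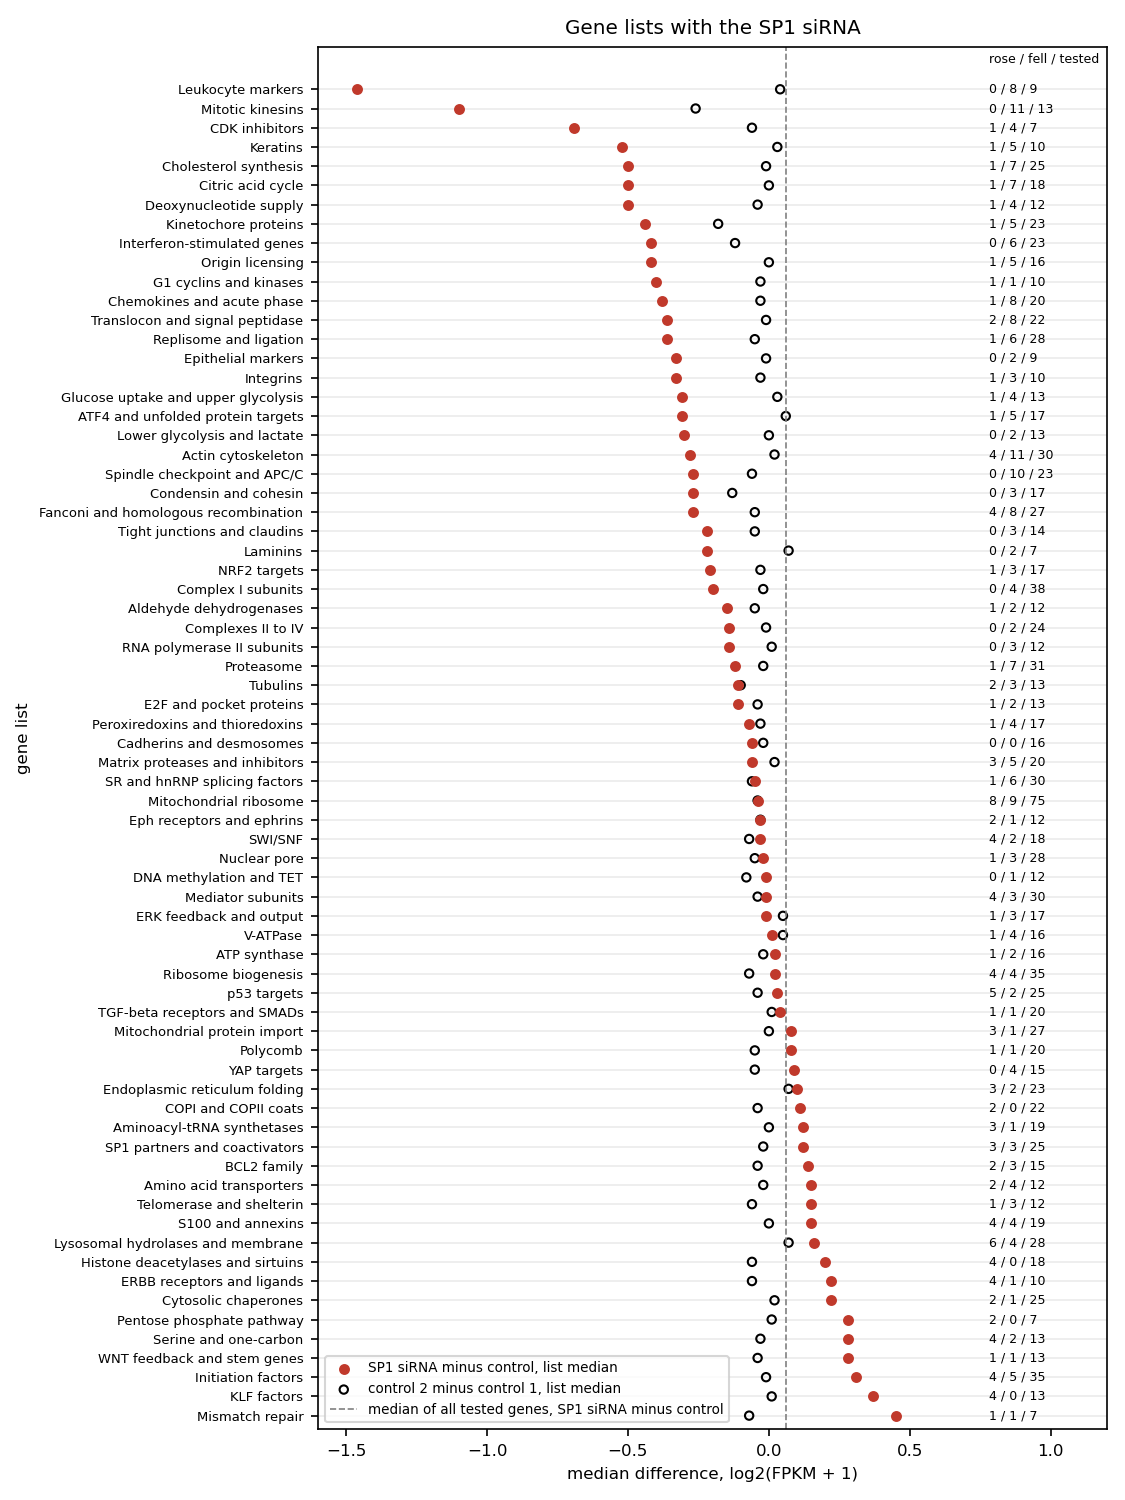
Red points are the median difference of each gene list, SP1 siRNA minus control (log2(FPKM + 1)), open points the same between the 2 controls, and the dashed line the median of all tested genes, 0.06. The numbers at the right give how many members rose, fell and were tested. Leukocyte markers (-1.46) and mitotic kinesins (-1.10) lie lowest among the lists drawn, which leave out the 3 added after the values were seen and those with fewer than 3 tested genes, and most lists lie between -0.5 and 0.5.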

How the data were processed

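RNA sequencing was made from total RNA of HCT116 cells extracted with Trizol, per the labels' protocols. The authors deposited 1 table per library of 20030 gene symbols with FPKM values. The submitters' processing notes name HTSeq 0.9.1, Cufflinks 2.2.1, HISAT2 2.0.5 and Trimmomatic 0.36 without their roles. Genome build, annotation, strandedness and poly(A) selection were not given in the sources used, so overlapping and antisense genes may share reads. Of the symbols, 27 read as dates and were not named.

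Depth was recovered from the steps of low FPKM values with 85 single-transcript genes of GENCODE 29. It came to 15681880 and 15899164 reads in the controls, 15354043 in the SP1 siRNA library, 15970519 in the SP3 siRNA library and 14678068 in the double knockdown. Whole reads, within 0.02, were found for 17125 of 17125 genes (100.0%), against 13.0% of 300 jittered genes. Read numbers are lower limits, and the 95% exact binomial intervals on them cover counting error only.

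FPKM values are not counts, so limma 3.58.1 (R 4.3.3, empirical Bayes with trend) was run on log2(FPKM + 1), a pseudocount of 1. Tested were 11728 genes that reached 1 FPKM in any library, over all 5 libraries with 1 mean per group. The controls gave 1 residual degree of freedom beside a prior of 13.98, and the knockdown library was assumed to vary like them. P-values were adjusted by Benjamini-Hochberg over all tested genes. The fit was also run on simulated data in which the knockdown library was drawn with the spread of the controls, so that assumption was not checked. The rule for named genes took the siRNA targets, the 20 largest rises and falls with a mean of at least 5 FPKM, all members of lists of up to 15 measured genes, up to 6 members of longer lists by size of change, the only changed member in a direction, the 5 highest control genes, the 3 genes each way that differed most between controls, and marker genes. The members, lists and tests were chosen with earlier results of these data known, and 3 of the 75 lists were added after the values were seen. Lists are described by counts and medians, without a test. Some list members are not reported here by name. Alternatives were other pseudocounts, filters, scaling, fits, priors and controls left out. Promoter windows came from RefSeq (GRCh38.p14), matched by symbol.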

Additional observations from a re-analysis of the deposited data

How the results depend on the processing

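Against 4283 higher and 3383 lower genes by limma alone, a filter at a mean of 5 FPKM gave 2656 higher, no filter gave 2452 higher and 1728 lower, and the additive model gave 432 and 468. Against 1620 rises and 1293 falls, the filter at 5 FPKM gave 895 rises. The additive model, where the rule on each control was not applied, gave 389 rises and 426 falls. Fewer genes are tested under the stricter filter, and the cause of the other shifts was not tested. Genes at least 2-fold higher numbered 898 with a pseudocount of 0.1 and 264 under the filter at 5 FPKM, against 443, and lower genes 692 with a pseudocount of 0.1, against 439. Leaving out 1 control gave 507 to 586 higher and 498 to 514 lower. Median-ratio scaling moved the all-gene median from 0.06 to 0.02 and gave 1438 rises and 1450 falls by the 1.5-fold rule. Of 338 named genes that changed, 79 also did in the additive model. MCM2 turned from -0.73 to 0.01 there, the only changed gene among those named to turn sign under any alternative. With either control left out the 338 kept their direction, which the 1.5-fold rule on each control fixes. GC box shares for all genes, rises and falls were 56.6%, 57.1% and 55.0% within 100 bases upstream, 31.4%, 33.6% and 31.5% for GGGGCGGGG, which contains GGGCGG, and 79.0%, 78.5% and 77.7% with any listed start, the last chosen after seeing the data. No paired analysis was possible because there is only 1 SP1 siRNA library. List medians moved by more than the spread between the controls in 24 of 73 lists in the additive model and in at most 12 under any other alternative. Depth limits the values of genes such as LYZ (6 reads with the SP1 siRNA) and CCL20 (5 reads).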
